A study of Mus musculus with 12 samples.

Results

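Transcripts of 46 genes that drive DNA replication and mitosis were followed in hepatocyte RNA of mice with and without a mammary tumour. The genes were taken by symbol from the deposited table of normalized read counts, which held all 46 of them among 15910 genes. Hepatocytes, the main epithelial cells of the liver, were dissociated after perfusion from female Balb/c mice that had been injected at 8 weeks of age. What had been injected, at the orthotopic site, was either PBS or 4T1 BC cells, and 4T1 is a transplantable mammary tumour line of Balb/c origin. The time after injection was 4 or 21 days, which gave 4 groups of 3 mice and 12 libraries of polyA-selected RNA. The labels mention no sort of the dissociated cells. The groups are called PBS day 4 (replicates 4, 5 and 6), tumour day 4 (1, 2 and 3), PBS day 21 (10a, 11a and 12b) and tumour day 21 (7, 8b and 9a).

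Most hepatocytes of an adult liver rest outside the cell cycle and express few of these genes. When a cell re-enters the cycle, D and E cyclins with their kinases release E2F transcription factors from the pocket proteins, and E2F then switches on the genes that license origins, unwind DNA and make nucleotides. Genes of mitosis come later, through the MuvB complex with B-Myb and FoxM1, and the anaphase-promoting complex destroys their products as the cell divides. Bone marrow precursors of neutrophils also divide, and they transcribe the granule enzymes Mpo, Elane, Prtn3 and Ctsg, which mature neutrophils no longer make.

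Recovered depth ranged from 9375095 to 21809166 reads per library. Tumour day 21 replicate 7 stood apart from the other libraries, and replicate 2 stood apart within tumour day 4. The main counts that rest on either are therefore given with and without it. Calls of single members at day 21 are given with the leave-out fits in which they held or were lost. Single calls of other genes, and those of tumour day 21 against day 4, mostly rest on the full fit alone. All 10 hepatocyte markers, among them Alb, Apoa1 and Ttr, were present in every library. Their summed normalized count ran from 1464000 to 1907000 in tumour day 21 and from 2029000 to 2351000 in PBS day 21. All 8 markers of myeloid precursors and all 13 of late neutrophils were called higher in tumour day 21 than in PBS day 21, where 5.42% of tested genes were. All 8 precursor markers and 11 of the 13 late ones had a mean below 10 in PBS libraries and were tested only because the tumour libraries were high, so their calls follow in part from the filter. Summed over 8 genes, the precursor markers reached 6293 to 31910 in tumour day 21 and 4.20 to 8.17 in PBS day 21. Of 8 mammary carcinoma markers the 3 analysed here were Krt8, Krt18 and Cdh1, and 0 of them were called. Hepatocytes also express Krt8 and Krt18, and Cdh1 was read in PBS mice too, so none of the 3 marks tumour cells alone.

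Promoter windows of licensing genes often held the E2F word, and those of mitotic genes the CHR and CCAAT words. Promoter windows from 250 bases before to 50 bases after the transcription start (RefSeq, GRCm38.p6) were found for 37 of the 46 genes, and the first window listed was used. Both strands were searched for TTTGAA, the CHR word bound by MuvB, for CCAAT, the word bound by NF-Y, and for the E2F word TTTNNCGC with C or G at each N. The E2F word lay in 6 of 7 windows of origin licensing genes (85.7%), against 2.32% of the windows of 27025 genes. It lay in 0 of 7 windows of fork, nucleotide supply and checkpoint genes and in 0 of 3 of entry genes. The CHR and CCAAT words stood together in 15 of 20 windows of genes of mitosis and in 2 of 17 windows of the other members. Over all genes 18.1% of windows held CHR, 37.9% held CCAAT and 7.12% held both. These words may overlap, and a match is no measure of binding. The 4 windows printed here show a licensing gene (Mcm5) and 3 mitotic genes (Cdk1, Aurka and Cdca8), 5′ to 3′ on the gene's strand, with every match in capitals. Aurka and Cdca8 come from the 6 members with a window and the smallest p at day 21, while Mcm5 and Cdk1 were chosen after their values were seen. The windows lie at chr8:75109259-75109558 (Mcm5, plus strand), chr10:69352863-69353162 (Cdk1, minus), chr2:172370521-172370820 (Aurka, minus) and chr4:124936868-124937167 (Cdca8, minus).
Mcm5: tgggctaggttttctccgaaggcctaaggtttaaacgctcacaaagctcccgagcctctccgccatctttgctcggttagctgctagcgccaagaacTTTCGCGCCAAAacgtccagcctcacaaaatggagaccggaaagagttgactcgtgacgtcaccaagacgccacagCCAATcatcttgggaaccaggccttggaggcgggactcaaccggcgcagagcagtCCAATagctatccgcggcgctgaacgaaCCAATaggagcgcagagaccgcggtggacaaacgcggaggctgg
Cdk1: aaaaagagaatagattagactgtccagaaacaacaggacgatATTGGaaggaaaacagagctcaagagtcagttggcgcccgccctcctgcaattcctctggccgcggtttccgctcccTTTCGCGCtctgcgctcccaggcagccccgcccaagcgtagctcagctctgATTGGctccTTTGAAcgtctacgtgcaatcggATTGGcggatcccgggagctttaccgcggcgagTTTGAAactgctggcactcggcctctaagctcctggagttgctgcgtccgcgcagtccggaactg
Aurka: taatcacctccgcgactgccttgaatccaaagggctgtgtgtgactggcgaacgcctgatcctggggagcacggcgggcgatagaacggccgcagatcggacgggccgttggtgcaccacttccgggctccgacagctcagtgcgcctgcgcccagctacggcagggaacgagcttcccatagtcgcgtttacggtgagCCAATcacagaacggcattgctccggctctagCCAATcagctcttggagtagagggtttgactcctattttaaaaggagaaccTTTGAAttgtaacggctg
Cdca8: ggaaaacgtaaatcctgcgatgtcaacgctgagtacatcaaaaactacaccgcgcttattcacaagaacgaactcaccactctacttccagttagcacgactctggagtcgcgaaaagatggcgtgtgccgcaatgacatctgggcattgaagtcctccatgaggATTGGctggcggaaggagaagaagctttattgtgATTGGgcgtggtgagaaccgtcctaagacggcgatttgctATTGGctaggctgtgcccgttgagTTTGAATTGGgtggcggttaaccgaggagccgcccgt
In Mcm5 a forward and a reverse E2F word overlap in a single run of capitals, and 3 CCAAT words lie nearer the start. Cdk1 holds an E2F word, 3 CCAAT words in reverse (ATTGG) and 2 CHR words. In Aurka 2 CCAAT words stand upstream of the start, and a CHR word lies after it. Cdca8 has 4 reverse CCAAT words, the last of which overlaps its CHR word.

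Most genes of replication and mitosis, 30 of 41, were called higher in tumour mice at day 21, and the other 11 did not pass the test. The 5 genes that start the cycle did not pass it either. Of the 46 genes 30 were called higher and 0 lower in tumour day 21 than in PBS day 21 (limma on log2 of the normalized count plus 1, Benjamini-Hochberg adjusted p under 0.05 over all tested genes). Over the 12631 tested genes 5.42% were called higher and 2.44% lower. The median log2 fold change of the members was 3.17, and that of all tested genes was 0.018. Without tumour replicate 7 these medians were 2.46 and 0.007. All 3 tumour libraries lay above all 3 PBS libraries in 41 of the 46 genes, against 17.2% of tested genes. To be tested, a gene needed a mean of 10 or more over the 12 libraries, which all 46 reached, but 17 had a mean below 10 in the PBS libraries and passed the filter through the tumour libraries. Of the 29 others 17 were called higher, and 16 were called when the filter was set on the PBS libraries alone, an alternative chosen after seeing the data under which 2.71% of 12193 genes were called higher. In a bulk preparation, more dividing cells and more of these transcripts per cell cannot be told apart. The number called fell to 12 without tumour replicate 7, when 2.86% of tested genes were called higher. Those 12 were 1 of 9 licensing genes, 2 of 7 of the fork and nucleotide supply, 3 of 6 mitotic cyclins and kinases, 3 of 7 of the checkpoint and kinetochore, 2 of 8 of the spindle, 0 of 2 partners of the anaphase-promoting complex and 1 of 2 of mitotic chromosomes. Without PBS replicates 10a, 11a and 12b it was 19, 14 and 11, beside 3.44%, 2.96% and 2.38% of tested genes. The 9 genes called in all 12 fits that leave out a library were Mcm4, Rrm2, Uhrf1, Ccna2, Aurka, Bub1b, Birc5, Cdca8 and Top2a, and 2.13% of tested genes were called higher in all 12 fits. Of the 9, Uhrf1 and Bub1b had a mean below 10 in PBS libraries and were tested through the tumour libraries.

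**Figure D1:**
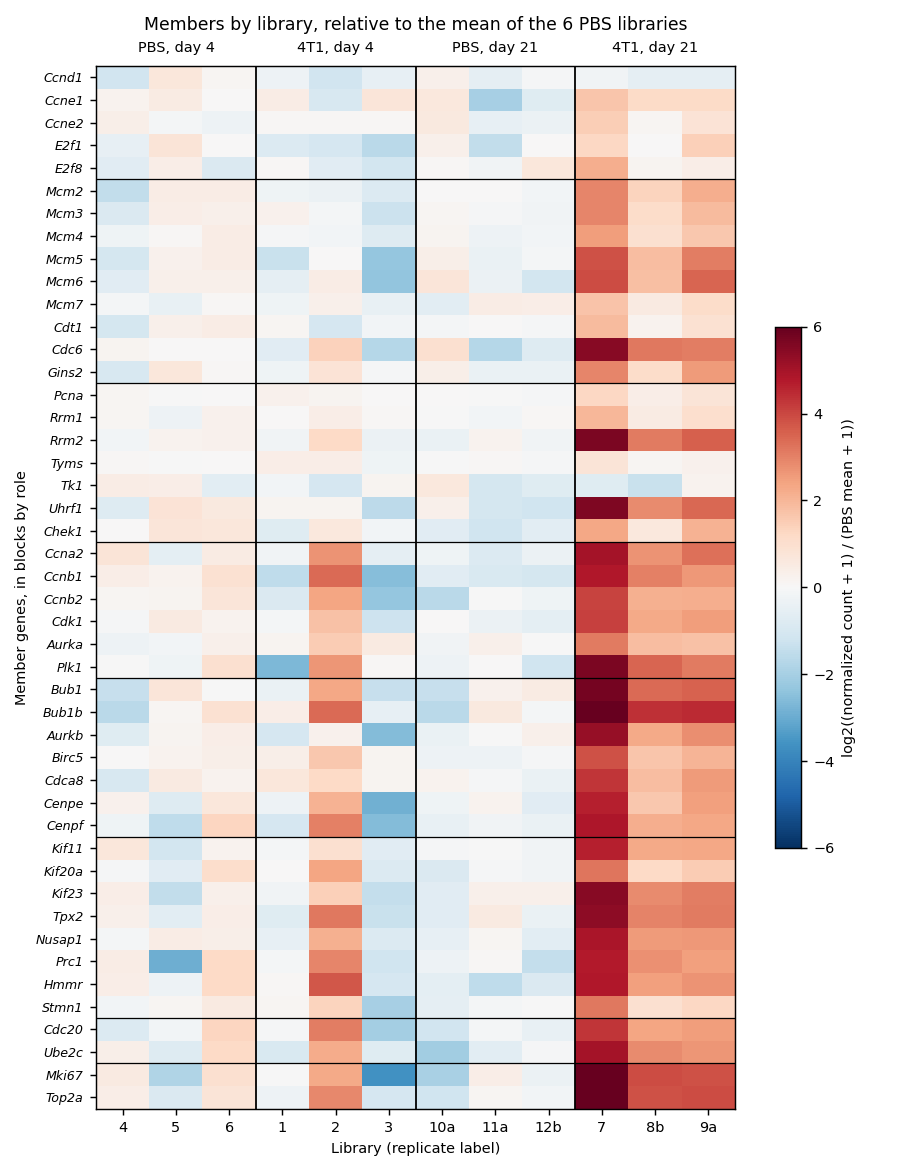
Heat map of the 46 genes (rows, in blocks by role) in the 12 libraries (columns, by group), coloured by log2 of the normalized count plus 1 over the mean of the 6 PBS libraries plus 1. The tumour day 21 columns are red in nearly every block with replicate 7 the darkest, and tumour day 4 replicate 2 is red in the blocks of mitosis.

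Mki67 and Top2a, whose proteins coat and untangle mitotic chromosomes, were called higher (2 of 2). Per kilobase of exon, Mki67 had the highest level of the mitotic genes in tumour day 21, at 98.9 normalized counts per kb, and Top2a had 62.2. Mki67 (ENSMUSG00000031004, GRCm38 chromosome 7, 135689784 to 135716361, minus strand), the source of the Ki-67 antigen used to mark dividing cells, had normalized counts of 2184, 412 and 389 in tumour day 21 replicates 7, 8b and 9a. In PBS day 21 it had 6.10, 34.3 and 19.98 in replicates 10a, 11a and 12b. The groups did not overlap, and the tumour mean of 995.2 ± 1030 exceeded the PBS mean of 20.1 ± 14.1 (SD, n = 3) by 5.34 on the log2 scale (SE 1.35, limma adjusted p = 0.0374). That call was lost without tumour replicates 7 or 8b or any 1 of the 3 PBS day 21 libraries, with fold changes from 4.53 to 5.86 on the log2 scale. Top2a (ENSMUSG00000020914, chromosome 11, 98992943 to 99024189, minus strand), topoisomerase II alpha, had 1204, 231 and 247 in tumour day 21 and 6.10, 16.8 and 13.6 in PBS day 21. Its log2 fold change was 5.06 (SE 0.95, adjusted p = 0.00955), with no overlap between the groups.

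Origin licensing and the replicative helicase were called higher in 7 of 9 genes, with a median log2 fold change of 2.18 for the 9, or 1.79 without tumour replicate 7. Mcm2 to Mcm7 form the ring that Cdc6 and Cdt1 load onto origins and that opens the double helix, and Gins2 is part of the complex that activates it. Mcm4 had 447, 149.65 and 240 in tumour day 21 and 84.6, 61.7 and 67.2 in PBS day 21 (log2 fold change 1.82, SE 0.35, limma adjusted p = 0.00845). Mcm5 (ENSMUSG00000005410, chromosome 8, 75109569 to 75128439, plus strand) had 664, 165 and 394 against 58.4, 34.3 and 41.8 (2.97, SE 0.63, adjusted p = 0.0147). Cdc6 had 139.74, 28.3 and 25.9 in the tumour group against 5.23, 0 and 0.91 in the PBS group (4.40, SE 0.93, adjusted p = 0.013). In each of these genes replicate 7 was highest and the groups did not overlap. The PBS value of Cdc6 rests on 7 reads in the 3 libraries together. Cdc6 and Gins2 had a mean below 10 in PBS libraries and were tested through the tumour libraries. The filter on PBS libraries gave 5 of 7 called, beside 2.71% of all tested genes. Mcm6, Mcm2, Gins2 and Mcm3 were also called, at 3.31, 2.18, 2.35 and 2.03. Mcm7 (1.06, adjusted p = 0.0762) and Cdt1 (1.06, adjusted p = 0.201) did not pass. Of the 7 called genes only Mcm4 passed in all 12 fits that leave out a library. The calls of Mcm5, Mcm6 and Cdc6 were lost without tumour replicate 7 or PBS replicates 11a or 12b, and those of Mcm2, Mcm3 and Gins2 held in 8, 7 and 8 of the 12 fits.

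The genes of the fork, of nucleotide supply and of the S phase checkpoint split by gene, with 5 of 7 called higher. Rrm2 (ENSMUSG00000020649, chromosome 12, 24708241 to 24714146, plus strand), the small subunit of ribonucleotide reductase that limits the supply of deoxynucleotides in S phase, had 598, 101 and 138 in tumour day 21. In PBS day 21 it had 7.85, 12.6 and 9.08, and the log2 fold change was 4.26 (SE 0.60, limma adjusted p = 0.0015). Its partner Rrm1, the large subunit, had means of 432 ± 241 and 169 ± 15.02 (1.21, adjusted p = 0.0303). Uhrf1, which carries DNA methylation over to the new strand, had 305, 44.9 and 67.9 against 6.97, 2.10 and 1.82 (4.59, SE 0.78, adjusted p = 0.00431). Chek1, the kinase that halts the cycle when forks stall, had 49.3, 14.97 and 42.0 against 5.23, 3.50 and 5.45 (2.53, SE 0.53, adjusted p = 0.0124). For Rrm2, Uhrf1 and Chek1 every tumour library lay above every PBS library. Uhrf1 and Chek1 had a mean below 10 in PBS libraries and were tested through the tumour libraries. The filter on PBS libraries gave 3 of 5 called, beside 2.71% of all tested genes. Pcna, the sliding clamp of the polymerase, was already high in PBS mice, with a mean of 287 ± 8.82, and reached 520.4 ± 155 (0.82, SE 0.18, adjusted p = 0.0161). Chek1 was not called without tumour replicate 7 or PBS replicate 11a, and Pcna was not called without tumour replicate 7 or PBS replicates 11a or 12b, while the Rrm1 call held in 8 of 12 fits.

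Tyms and Tk1, the enzymes that make thymidylate afresh and by salvage, did not pass. Tyms had a log2 fold change of 0.40 (95% interval -0.09 to 0.89, limma adjusted p = 0.313). Tk1 (ENSMUSG00000025574, chromosome 11, 117815526 to 117826092, minus strand) had 299, 195 and 568 in tumour day 21 and 784, 237 and 303 in PBS day 21. The groups overlapped, and the log2 fold change of -0.26 (interval -1.40 to 0.89, adjusted p = 0.814) turned positive without tumour replicate 8b (0.10), without PBS replicate 10a (0.26) and when scaled to the hepatocyte markers (0.09).

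The 5 genes of entry into the cycle gave no call. Ccnd1 (ENSMUSG00000070348, chromosome 7, 144929931 to 144939925, minus strand), cyclin D1, which is induced early in regenerating liver, had 985, 770 and 791 in tumour day 21. PBS day 21 had 1407, 790 and 1066, so the groups overlapped, and the log2 fold change was -0.33 (interval -1.19 to 0.54, limma adjusted p = 0.673), or 0.02 when scaled to the hepatocyte markers. Per kilobase of exon, Ccnd1 was the most abundant member in PBS day 21, at 231 normalized counts per kb, followed by Pcna at 119 and Tk1 at 84.9. In tumour day 21 the order was Pcna at 217, Ccnd1 at 180.2, Mcm5 at 102 and Rrm2 at 101. Ccne1, cyclin E1, which starts S phase with Cdk2, had 82.4, 56.5 and 57.2 in tumour mice against 39.2, 5.61 and 14.5 (log2 fold change 2.03, interval 0.76 to 3.29, adjusted p = 0.0534). It passed in 2 of the 12 fits that leave out a library, among them the fit without PBS replicate 10a (2.69). E2f1, the activator of S phase genes, had 1.29 (adjusted p = 0.161), Ccne2 0.91 (adjusted p = 0.162) and E2f8, a repressor of the same genes, 0.72 (adjusted p = 0.462).

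**Figure D2:**
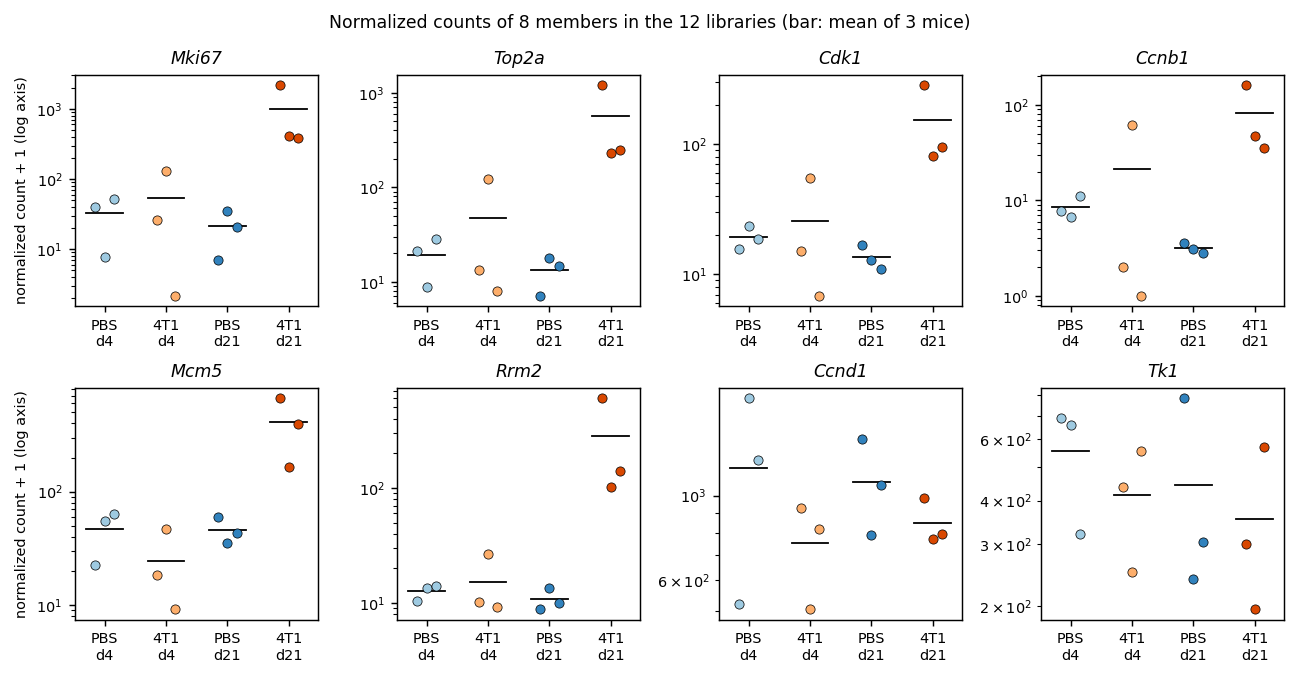
Normalized counts plus 1 (log axis) of 8 members in each library, by group, with bars for the mean of 3 mice. Mki67, Top2a, Cdk1, Mcm5 and Rrm2 lie higher in all 3 tumour day 21 libraries than in any other library, Ccnb1 has tumour day 4 replicate 2 within their range, and Ccnd1 and Tk1 overlap between the groups.

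Mitotic cyclins and kinases were called higher in 5 of 6 genes, against 5.42% of tested genes. Plk1, Ccnb1 and Ccnb2 had a mean below 10 in PBS libraries and were tested through the tumour libraries. With the filter on PBS libraries 3 of 3 were called, beside 2.71% of all tested genes. Cdk1 (ENSMUSG00000019942, chromosome 10, 69335146 to 69352938, minus strand), the kinase that drives entry into mitosis, had 282, 79.8 and 93.9 in tumour day 21 and 15.7, 11.9 and 9.99 in PBS day 21. Its log2 fold change was 3.28 (SE 0.65, limma adjusted p = 0.0104). Ccna2, cyclin A2, which partners Cdk2 and then Cdk1, had 372, 73.2 and 113 against 8.72, 5.61 and 8.17 (4.13, SE 0.80, adjusted p = 0.00955). Aurka, the kinase of the spindle poles, had 196, 79.8 and 74.8 against 18.3, 26.6 and 20.9 (2.23, SE 0.42, adjusted p = 0.00801). The 3 genes had no overlap between the groups, and replicate 7 was highest in each. Plk1, a kinase of centrosomes and kinetochores, rose by 4.58 (adjusted p = 0.0265) and Ccnb1, cyclin B1, by 4.36 (adjusted p = 0.0454) on the log2 scale. Ccnb2 had 3.41 (adjusted p = 0.0548) and was called without tumour day 4 replicates 2 or 3, which enter the fit through the shared spread. The call of Cdk1 was lost only without PBS replicate 12b, that of Plk1 held in 8 of the 12 fits that leave out a library, and that of Ccnb1 in 2.

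The spindle checkpoint, the chromosomal passenger complex and the kinetochore had 5 of 7 genes called higher, against 5.42% of tested genes. Bub1, Bub1b, Aurkb, Cenpe and Cenpf had a mean below 10 in PBS libraries and were tested through the tumour libraries. The filter on PBS libraries left 2 genes, and 2 of 2 were called, beside 2.71% of all tested genes. Bub1b, which holds back the anaphase-promoting complex until chromosomes are attached, had 296, 63.2 and 66.4 in tumour day 21 and 0, 3.50 and 1.82 in PBS day 21. Its log2 fold change of 5.54 (SE 1.03, limma adjusted p = 0.00759) was the highest among the 46 genes, and its PBS value rests on 7 reads. Birc5 (survivin) and Cdca8 (borealin), which place the Aurora B kinase on chromosomes, moved alike. Birc5 had 204, 44.9 and 58.0 against 10.5, 10.5 and 12.7 (2.75, SE 0.53, adjusted p = 0.00837). Cdca8 had 241, 43.2 and 71.0 against 13.1, 10.5 and 8.17 (3.01, SE 0.59, adjusted p = 0.00917). Every tumour library exceeded every PBS library in these 3 genes. Bub1, the checkpoint kinase (4.45), and Aurkb, Aurora B itself (3.48), were called too, each in 8 of the 12 fits that leave out a library. Cenpe, a kinetochore motor (3.14, adjusted p = 0.0999), and Cenpf (3.47, adjusted p = 0.117) were not, and both passed without tumour day 4 replicate 2.

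Spindle and cytokinesis genes were called higher in 5 of 8, against 5.42% of tested genes. Nusap1, Kif23, Hmmr, Tpx2 and Prc1 had a mean below 10 in PBS libraries and were tested through the tumour libraries. With the filter on PBS libraries 1 of 3 was called, beside 2.71% of all tested genes. Kif11, the motor that pushes spindle poles apart, had 429, 81.5 and 82.4 in tumour day 21 and 14.8, 15.4 and 13.6 in PBS day 21 (log2 fold change 3.20, SE 0.66, limma adjusted p = 0.0118). Nusap1, which bundles spindle microtubules, had 298, 56.5 and 59.5 against 6.10, 9.81 and 5.45 (3.68, SE 0.76, adjusted p = 0.0122). Kif23, a motor of the midzone between separating chromosomes, had 262, 41.6 and 48.1 against 2.62, 6.31 and 6.36 (3.82, SE 0.85, adjusted p = 0.0174). In all 3 genes replicates 8b and 9a lay close together and far above PBS, and replicate 7 lay above them. Hmmr (4.32) and the spindle assembly factor Tpx2 (3.99) passed, whereas Prc1 (3.88, adjusted p = 0.07), Kif20a (2.37, adjusted p = 0.0865) and the tubulin binder Stmn1 (2.01, adjusted p = 0.123) did not. The calls of Kif11 and Nusap1 were lost without PBS replicate 12b, that of Kif23 without tumour replicate 7 or PBS replicates 10a or 12b, and those of Hmmr and Tpx2 held in 8 of 12 fits. Of the partners of the anaphase-promoting complex, Ube2c, its ubiquitin donor, had 367, 81.5 and 70.2 against 1.74, 6.31 and 9.99 (4.42, SE 0.92, adjusted p = 0.0136), a call lost without tumour replicate 7 or PBS replicate 10a. Cdc20, its activator, had 268, 69.8 and 78.6 against 5.23, 11.9 and 9.08, which did not overlap but missed the threshold (3.62, SE 1.06, adjusted p = 0.0612).

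**Figure D3:**
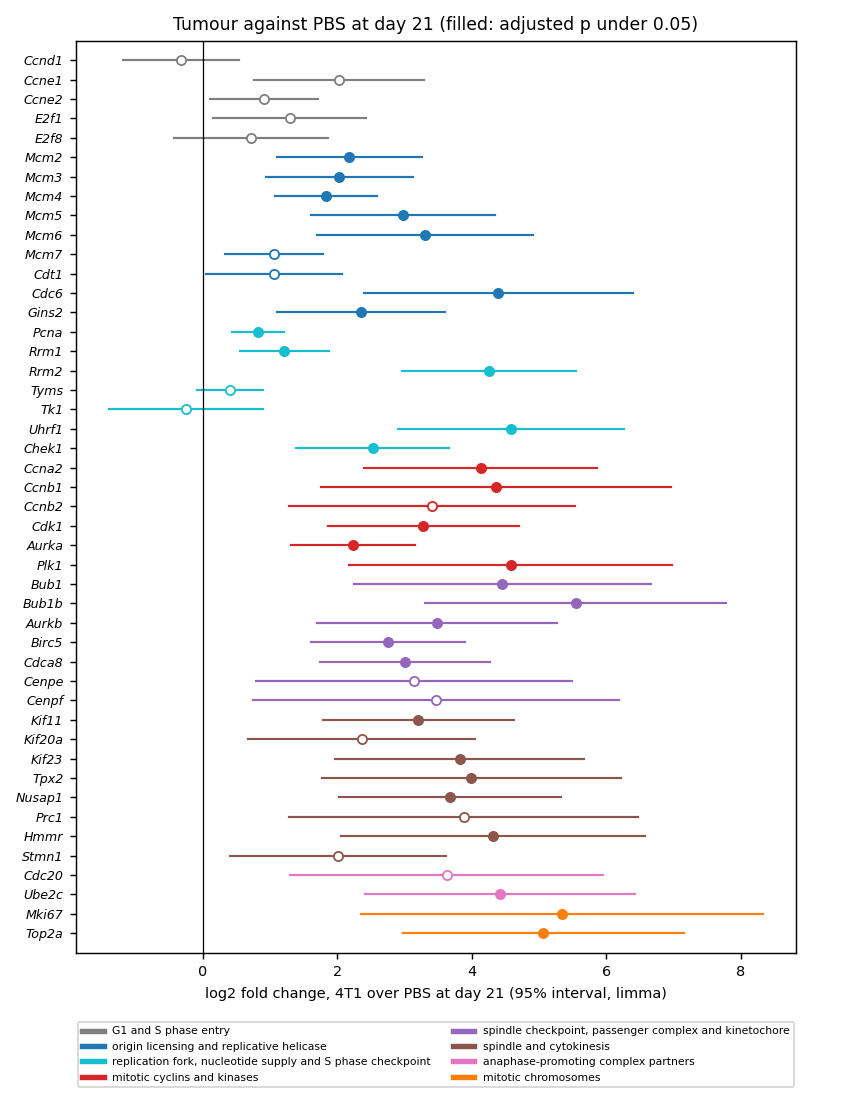
Log2 fold change of tumour over PBS at day 21 for each of the 46 genes (points, with 95% intervals from limma, coloured by role, filled where the adjusted p is under 0.05). The 30 filled points lie right of 0, Bub1b is farthest at 5.54, and Ccnd1 and Tk1 are the 2 points left of 0.

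The 3 tumour mice of day 21 were not alike, and the genes of mitosis and of replication were spread over them in different proportions. Replicate 7 was the highest of the 3 in 44 of 46 genes, against 41.3% of all tested genes. Summed over the 46 genes, the normalized counts were 16920 in replicate 7, 4965 in 8b and 6841 in 9a, against 2455 to 3979 in the other 9 libraries. For the 25 genes of mitosis the ratio of replicate 7 to the mean of 8b and 9a had a median of 4.83 (range 2.54 to 6.53). For the 16 genes of licensing, fork and nucleotide supply it had a median of 2.22 (0.784 to 5.40). No PBS level was subtracted for these ratios, and a high PBS level brings a ratio nearer to 1. In Tyms, for example, the ratio was 1.53, but replicates 7, 8b and 9a exceeded the PBS day 21 mean by 77.1, 9.99 and 19.95. Part of the lower ratios of replication genes can thus come from their PBS level. Mpo (ENSMUSG00000009350, chromosome 11, 87793581 to 87804413, plus strand), myeloperoxidase, had 13140 in replicate 7, 2446 in 8b and 2274 in 9a, a ratio of 5.57. Elane, Prtn3 and Ctsg had ratios of 5.73, 3.45 and 4.62. In the PBS day 21 libraries Mpo had 0, 1.40 and 0, or 2 reads against 20718 in the tumour libraries, a ratio of summed reads scaled for depth of 12430 with a 95% counting interval of 3442 to 102700. The mitotic genes and the precursor markers were thus high in the same library. Markers of other cells were high in it as well: the Kupffer cell list had 25070 there against 3385 in 8b and 10460 in 9a, the sinusoidal endothelium list 9537 against 2685 and 4476, and the stellate cell list 7910 against 2260 and 3924. Over the mean of 8b and 9a the B and plasma cell list stood 7.71 times higher in replicate 7 (504 against 58.2 and 72.5), the T and NK cell list 5.50 times (437 against 66.5 and 92.4) and the platelet list 3.12 times. Ratios near or above that of Mpo were thus also seen in lists of lymphoid cells, at low summed counts. Few genes of these lists were high enough to be tested. Of 8 T and NK cell genes 1 was tested, and it was called higher in tumour day 21 than in PBS day 21. That gene had a mean below 10 in PBS libraries and was tested through the tumour libraries, so its call follows in part from the filter. Of 7 B and plasma cell genes 2 were tested and 0 called, with a median log2 fold change of 0.46, or -0.10 without replicate 7. The late neutrophil list had 88500, 39930 and 20780, and the hepatocyte list was lowest in replicate 7, at 1464000 against 1729000 and 1907000. Lowest there too were the cholangiocyte list (152.7 against 327.6 and 190.8) and the carcinoma markers (3660 against 6352 and 5240). The part of any of these cells in the rise was not tested.

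**Figure D4:**
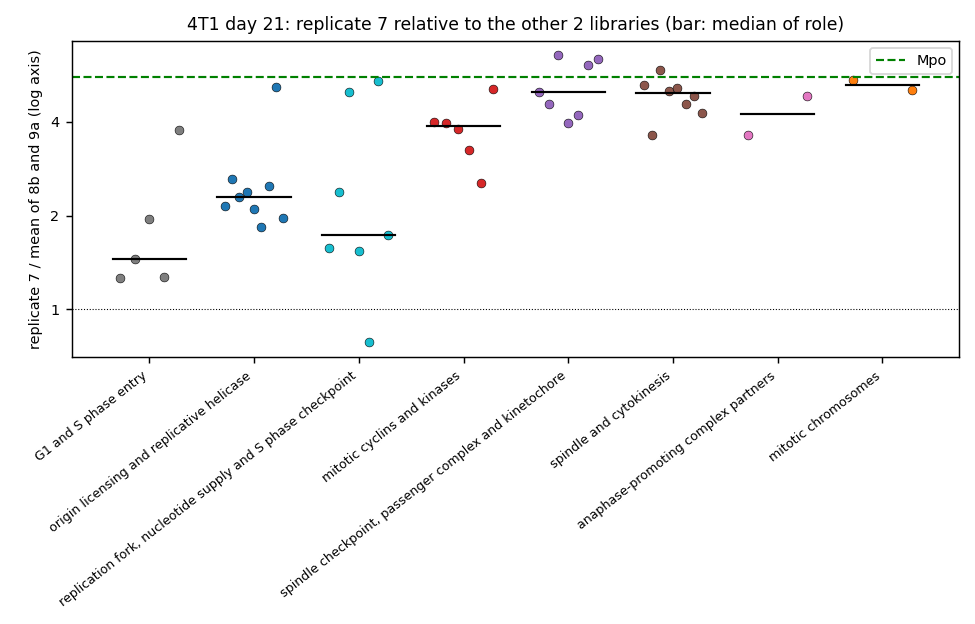
Ratio of tumour day 21 replicate 7 to the mean of replicates 8b and 9a (log axis) for each member, by role, with bars for the median of a role and a dashed line for Mpo at 5.57. Most mitotic genes lie between 3 and 6.53, near the line, and most licensing and fork genes lie between 1.53 and 2.61. No PBS level was subtracted.

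Set against Mpo, the proportions of most mitotic genes varied less among the 3 tumour mice than those of most replication genes. Mpo itself was nearly equal in 8b and 9a (2446 and 2274), so the mice gave few distinct levels of it. For each gene the mean of PBS day 21 was subtracted, and the excess was given per 1000 normalized counts of Mpo in the same library. Mki67 had 165, 160.4 and 162 in replicates 7, 8b and 9a, although its own level differed more than 5 times between them. Top2a had 90.7, 89.5 and 103, and Kif11 had 31.5, 27.3 and 29.8. In these 3 genes the proportions lay much closer together than the levels they come from. Other mitotic genes varied more: Cdk1 had 20.5, 27.5 and 35.8, and Aurka had 13.3, 23.7 and 23.2. Mcm5 varied still more, with 47.1, 49.0 and 154, and Mcm6 had 31.7, 29.7 and 130.4. Pcna had 30.5, 38.5 and 90.8, so that replicate 9a stood above the other two in all 3 of these replication genes. The highest and lowest of the 3 proportions differed by 2 times or less in 24 of 25 mitotic genes, with Cenpe the exception at 2.28, and in 3 of 16 replication genes, which were Cdc6, Rrm2 and Uhrf1. The median of highest over lowest was 1.40 for the mitotic genes. It was 2.98 for the replication genes other than Tk1, whose lowest proportion was negative. In some replication genes the excess of 8b was near the PBS day 21 spread, as in Mcm7 (51.7 beside an SD of 56.1) and Tyms (9.99 beside 6.42). In others it lay well above, as in Mcm5 (119.8 beside 12.3). Where the excess was near that spread, the ratio of highest to lowest is uncertain. Summed over the mitotic genes, the proportion was 674, 672 and 778 per 1000 of Mpo. Summed over the replication genes, it was 361, 255 and 991. Tk1, which was not called and varied widely in PBS mice, contributed -10.8, -100.9 and 55.7 to this sum. Tk1 thus widened the spread of the replication sums, which were not made without it. With Elane, Ctsg or Prtn3 in place of Mpo the largest over the smallest was 1.11, 1.25 and 1.75 for the mitotic sum and 3.40, 4.16 and 4.62 for the replication sum, against 1.16 and 3.89 with Mpo. Only 3 libraries enter these proportions, the contrast was noticed in the data and no test was made of it. Markers of other cell types were not set beneath the members in this way. Replicate 9a also had more than 3 times the Kupffer cell marker level of 8b, and the part of this in the replication genes was not tested.

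At day 4 no member was called between tumour and PBS mice. Of the 46 genes 0 were called in limma, as were 0 of the 12631 tested genes (0% higher and 0% lower), and at an unadjusted p under 0.05 there were 1 member and 761 genes. The edgeR test called 0 genes, and DESeq2 called 1 gene (0.00792%) and 0 members. The member was E2f1, with 17.3, 14.7 and 9.36 in tumour and 21.5, 53.0 and 31.0 in PBS (log2 fold change -1.23, interval -2.37 to -0.09, adjusted p = 0.815), and its groups did not overlap, as in 4.24% of tested genes for a lower tumour group. Mki67 had a fold change of -0.37 on the log2 scale (interval -3.36 to 2.62, adjusted p = 0.982) and Rrm2 0.11 (interval -1.18 to 1.41, adjusted p = 0.993). The median over the members was -0.043 and changed to -0.58 without tumour day 4 replicate 2 and to 0.41 without replicate 3.

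A single mouse of the group, tumour day 4 replicate 2, had the genes of mitosis raised without those of entry into the cycle. It lay above the other 5 day 4 libraries in 31 of 46 genes, against 21.5% of tested genes. Of the 25 mitotic genes 24 did so, with a median log2 ratio to the mean of the other 5 of 2.35, and Aurkb was the exception. Hmmr had 89.6 against 2.34 to 14.7 in the other 5 libraries, Ccnb1 60.2 against 0 to 10.1, and Tpx2 74.9 against 2.34 to 10.1. Mki67 had 130.2 against 1.17 to 51.1, and Cdc20 had 114 against 2.34 to 32.5. The summed level of the mitotic genes was 1411, with 132 to 442 in the other 5 libraries. Of the 16 replication genes 7 were highest in replicate 2, with a median log2 ratio of 0.36. The sum of the 16 was 1477, within the 1416 to 1743 of the others. Tk1, at 249 in replicate 2 against 320 to 688 in the other 5, lowered that sum, which was not made without it. None of the 5 entry genes was highest there (0 of 5), and Ccnd1, at 503, was lowest of the day 4 libraries.

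**Figure D5:**
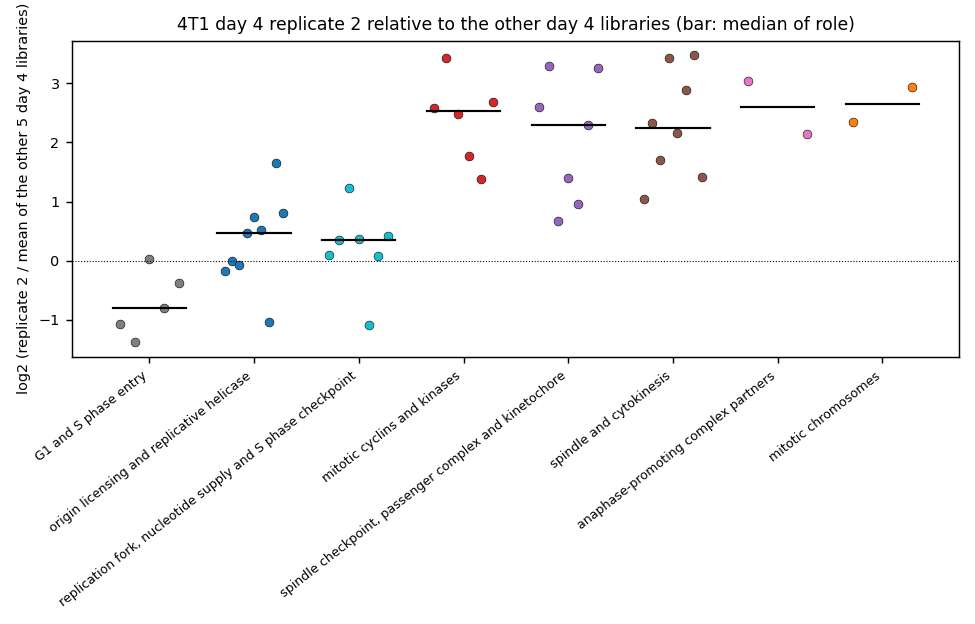
Log2 ratio of tumour day 4 replicate 2 to the mean of the other 5 day 4 libraries for each member, by role, with bars for the median of a role. The roles of mitosis have medians above 2, and the entry genes lie at or below 0.03.

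Replicate 2 also held the most myeloid precursor transcripts of day 4, but in other proportions than at day 21. Mpo had 61.4 there, from 50 reads, against 0 to 2.03 in the other 5 day 4 libraries, and Elane had 34.4 against 0 to 2.25. The precursor list summed to 209 against 4.02 to 37.6, the late neutrophil list to 3943 against 345 to 2078, and the erythroid list to 2054 against 784 to 1419. The Kupffer cell list had 3183 against 581 to 2993. The B and plasma cell, cholangiocyte and platelet lists were also highest there, at 102, 123 and 55.2, with at most 88.5, 106 and 41.8 elsewhere. Not highest there were the T and NK cell list (33.15 against 7.89 to 33.53), sinusoidal endothelium (1969 against 1172 to 2738) and stellate cells (1693 against 673 to 2201). The 3 carcinoma markers Krt8, Krt18 and Cdh1 summed to 7155 against 2819 to 5192. Of these, Cdh1 had 621 against 108 to 446 in the other 5 day 4 libraries, which include those of the PBS mice. Per 1000 normalized counts of Mpo, the mitotic genes together had 18750 above the mean of the other 5 day 4 libraries in this library, against 672 to 778 above PBS in the tumour mice of day 21. The mitotic sum was thus far higher relative to Mpo at day 4 in this mouse than at day 21. Which cells carried these transcripts was not tested.

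The test of the difference between the tumour effects of the 2 days called 1 of 46 genes, against 0.641% of tested genes called higher and 0.0475% called lower. That gene was Rrm2, whose tumour effect was larger at day 21 by 4.15 on the log2 scale (SE 0.85, limma adjusted p = 0.0488; 0.000589 to 0.159 over the alternatives). The call was lost in 9 of the 12 fits that leave out a library, with values from 3.37 to 4.32, and in edgeR. It had 9.15, 25.8 and 8.19 in tumour day 4 and 9.39, 12.4 and 13.2 in PBS day 4, where the groups overlapped. All 46 differences were positive, as were 53.2% of those of tested genes, and 36 had an unadjusted p under 0.05, as did 13.3% of tested genes. Without tumour day 4 replicate 2 the test called 13 members, beside 1.1% of tested genes. It called 5 without tumour day 21 replicate 8b (0.53% of tested genes), 1 without 9a (0.942%) and 0 without any 1 of the other 9 libraries. Tumour day 21 against tumour day 4, which shares its libraries with those comparisons, gave 30 of 46 called higher and 0 lower, against 10.5% and 4.71% of tested genes. The groups did not overlap in 32 members, all higher at day 21, against 17.7% of tested genes. Mcm5 had 4.15 (adjusted p = 0.00262), Rrm2 3.91 (adjusted p = 0.00249) and Mki67 5.17 (adjusted p = 0.0287). E2f1, with 74.3, 31.6 and 85.5 at day 21, passed here (2.05, adjusted p = 0.0222), while Ccnb1 (adjusted p = 0.0562) and Hmmr (adjusted p = 0.144) did not. The number was 7 when only those groups were fitted (3.55% of tested genes) and 9 without tumour day 21 replicate 7 (4.66%). Without tumour day 4 replicates 1 and 3 it was 13 and 11 (6.73% and 5.05%).

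PBS mice did not differ between the days in any member by the test. Of the 46 genes 0 were called in limma, with 0% of tested genes called either way, and 1 had an unadjusted p under 0.05. The edgeR test called 0 genes, and DESeq2 called 5 genes lower (0.0396%) and 0 members. The member was Chek1, with 9.39, 15.8 and 15.5 at day 4 and 5.23, 3.50 and 5.45 at day 21 (log2 fold change -1.33, limma adjusted p = 0.938). The groups did not overlap in 5 members, all lower at day 21, against 4.51% of tested genes lower and 5.44% higher.

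Genes of the same pathways outside the 46 are to be read against the 5.42% of tested genes called higher and 2.44% called lower at day 21. Among 40 other tested replication genes 13 were called higher and 0 lower, with a median log2 fold change of 0.95, beside 0.018 for all tested genes. Of the 40, 8 passed the filter through the tumour libraries. Without tumour replicate 7 the count was 4 of 40, and with the filter on PBS libraries it was 5 of 32, beside 2.86% and 2.71% of all tested genes, and both counts were added after seeing the data. Timeless, which steadies the fork, had 165 ± 35.3 in tumour and 60.2 ± 2.46 in PBS mice (1.42, limma adjusted p = 0.00178), and the chromatin remodeller Hells had 2.65 (adjusted p = 0.00592). Clspn, the adaptor that activates Chek1, had 4.17 and the histone chaperone Asf1b 3.94. Among 42 other mitosis genes 21 were called higher and 0 lower, with a median of 2.77, and 22 of the 42 passed the filter through the tumour libraries. Here 4 of 42 were called without replicate 7, with a median of 2.06, and 5 of 20 with the filter on PBS libraries. Kif18b (4.39), the passenger complex scaffold Incenp (2.99), Tacc3 (2.96) and Kif15 (4.89) had the smallest p. Of 14 transcription factors of the cycle 4 were called higher, and these were the E2F partner Tfdp1 (1.16), Foxm1 (2.66), E2f2 (2.22) and Mybl2, which encodes B-Myb (2.60). Without replicate 7 only Tfdp1 was called (1 of 14). Of the 14, 1 passed the filter through the tumour libraries, and with the filter on PBS libraries 2 of 13 were called. Of 10 other cyclins and kinases only Pkmyt1, the kinase that holds Cdk1 inactive, was called (4.84, adjusted p = 0.00417). Not called were Cdc25a (1.16, adjusted p = 0.07), Cdk6 (0.76, adjusted p = 0.121) and Ccnd3 (0.90, adjusted p = 0.135). Of these 10 genes 1 passed the filter through the tumour libraries, and with the filter on PBS libraries 0 of 9 were called, beside 2.71% of all tested genes.

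Of 17 tested inhibitors and pocket proteins 2 were called higher at day 21 and 0 lower, beside 5.42% and 2.44% of all tested genes, and the median log2 fold change was -0.044. Without tumour replicate 7 only Rbl1 was called (1 of 17). The pocket protein Rbl1, itself a gene of S phase, had 160 ± 105 in tumour and 35.5 ± 4.06 in PBS mice (1.96, limma adjusted p = 0.00829), and Cdkn2d, an inhibitor of Cdk4 and Cdk6, had 1.49 (adjusted p = 0.0482). Cdkn1a, which encodes p21, had 155 ± 28.9 against 26.5 ± 18.5 (2.88, adjusted p = 0.0593). Gadd45b, a stress-induced inhibitor, had -1.51 (adjusted p = 0.12). At day 4 no inhibitor was called, and the 4 with the smallest p were Ccng2 (-0.93), Btg2 (-1.13), Btg1 (-0.73) and Rbl2 (-0.37), each with an adjusted p of 0.815.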

How the data were processed

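RNA of 12 hepatocyte preparations was sequenced after polyA selection, per the labels' protocols. Per the submitters' processing notes, cutadapt, STAR 2.4.2a, HTSeq and DESeq2 were used with GRCm38. The sources used here give no annotation or strand setting for the counting. The values deposited by the authors are a signal, normalized read counts per gene, per the file headers, with no correction for gene length. Low values of a library were whole multiples of what 1 read is worth, and dividing by it recovered whole reads (at least 99.981% of values within 0.1 of a whole number), and all per-sample columns were mapped to samples by name.

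The test covered the 12631 genes whose mean over all 12 libraries reached 10. In R 4.3.3, limma 3.58.1 was fitted to log2(value + 1) with 1 mean per group (lmFit, then eBayes, trended and robust). Adding 1 shrinks the fold change of low genes. P-values were Benjamini-Hochberg adjusted over all tested genes. Errors after ± are SDs over 3 mice, and counting intervals cover counting error only. The labels name separate mice, so p-values measure the spread between mice, and no libraries of a group agreed within sampling noise. Gene positions and exon lengths come from GENCODE M21 (all 46 genes matched by identifier). The members and lists were chosen with earlier results of these data known. Per-library values are given for Mki67, Top2a, Ccnd1 and up to 3 genes of each of 8 roles in order of p at day 21, other pathway lists give up to 4 genes in order of p, and marker lists up to 3 as listed (Mpo, Elane, Prtn3 and Ctsg for precursors). Tk1, Mcm6, Pcna, Cdc20 and the genes of single libraries were added after their values were seen. Alternatives were pseudocounts of 0.5 and 5, no filter, a filter of 50, edgeR 4.0.16 and DESeq2 1.42.0 on recovered reads, scaling to total reads or to hepatocyte markers, a fit of only the groups compared, and leaving out each library. The fitting code was tested on simulated data. Reads of overlapping or antisense genes cannot be separated without the strand setting.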

Additional observations from a re-analysis of the deposited data

Results flagged for a closer look

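For Rrm2 the test of the difference between the days passed the threshold narrowly. The tumour effect was larger at day 21 than at day 4 by 4.15 on the log2 scale (limma adjusted p = 0.0488), and all 3 tumour libraries lay above all 3 PBS libraries at day 21 but not at day 4. The call was lost in 9 of the 12 fits that leave out a library, with differences from 3.37 to 4.32, and with a pseudocount of 0.5, a filter of 50, edgeR, scaling to total reads or the filter on PBS libraries, and the adjusted p ran from 0.000589 to 0.159 over the alternatives.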

How the results depend on the processing

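At day 21 the members called numbered 30 as reported, 11 to 37 when a library was left out, 15 of 23 tested with a filter of 50 and 16 of 29 with the filter on PBS libraries, and 29 to 37 under the other alternatives. All 15 and all 16 were among the 30. Of the 37 called in DESeq2 28 were among them, and 2 members had no adjusted p there. With only the groups compared 30 were called, of which 26 were among the 30 reported. The all-gene median shifted by 0.37 on the log2 scale with scaling to hepatocyte markers, which turned Ccnd1 to 0.02 and Tk1 to 0.09. Tk1 ran from -0.67 to 0.26 when a library was left out and was positive without tumour day 21 replicate 8b (0.10) and PBS day 21 replicate 10a (0.26). For the difference between the days, 1 member was called as reported and 0 to 13 when a library was left out. That number was 0 with a pseudocount of 0.5, a filter of 50, edgeR, scaling to total reads or the PBS filter, 2 with a pseudocount of 5, 3 without a filter or with hepatocyte scaling, and 13 with DESeq2. For tumour day 21 against day 4 the 30 calls became 9 to 37 when a library was left out, 14 of 23 with a filter of 50, 18 of 29 with the PBS filter and 7 when only those groups were fitted. For tumour against PBS at day 4 and for PBS at day 21 against day 4, 0 members were called under every alternative run. The cause of these moves was not tested beyond the fewer genes or libraries in each fit. A lone pair of libraries left in a group was assumed to vary like the other groups. Genes with under 10 reads in a group, such as Bub1b and Cdc6 in PBS mice, have fold changes that depend on the pseudocount. No paired analysis was possible because the groups compared share no replicate numbers.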
